A study of Rattus norvegicus with 8 samples.

Results

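The genes described here encode the UDP-glucuronosyltransferases of families 1 to 3 and the cytosolic sulfotransferases of families 1 to 6 in rat liver. They were chosen by name: a row of the gene count table whose symbol begins with Ugt1, Ugt2, Ugt3 or Sult1 to Sult6 and which is annotated as protein coding. Of 30562 rows, 26 matched, and 24 of these had at least 10 reads summed over the 8 libraries and are the members reported. Just inside that minimum stood Sult5a1 with 12 reads, and just outside it Sult2a2-ps1 with 8 reads and a second row named Sult2a2 (ENSRNOG00000062869) with 4. Liver RNA came from male Wistar rats that weighed 160 g at the start, 20 animals in 4 groups of 5, and paired 150 bp reads were made from 2 animals in each group. Rats labelled AT + HCB received atorvastatin, a statin that blocks cholesterol synthesis, together with hexachlorobenzene (HCB), a persistent chlorinated fungicide that causes porphyria. Rats labelled HCB were gavaged with 100 mg/kg of HCB 3 times weekly over 30 days. Rats labelled AT took atorvastatin with their water at a stated 5 mg/kg a day, and Control rats had vehicle. All were killed on day 37. The water recipe of 5 mg in 20 mL per rat and day comes to 31.25 mg/kg at the starting weight, so the atorvastatin dose received is uncertain.

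The libraries stood apart in ways that went against their labels, and this bears on every HCB comparison here. Although all rats were labelled male, the summed level of 5 chromosome Y genes was 135.6 to 217 CPM in the 4 libraries labelled AT + HCB or HCB, against 1.99 to 3.99 CPM in the 4 labelled AT or Control. Of the 5, 4 were called higher in both HCB comparisons, and Ddx3y overlapped, at 0.507 to 2.51 CPM against 1.09 to 2.08 CPM. CPM here are read counts scaled to library size and composition. The sum of 4 fetal liver genes, Afp, H19, Igf2 and Dlk1, was 145.2 to 329 CPM in the libraries labelled AT + HCB or HCB and 37427 to 51205 CPM in those labelled AT or Control. A set of 5 neutrophil genes summed to 0.401 to 3.17 CPM in the AT + HCB and HCB libraries and to 128 to 214 CPM in the AT and Control libraries. A set of 5 erythroid genes summed to 264 to 1181 CPM in the AT + HCB and HCB libraries and to 1750.5 to 4358 CPM in the AT and Control libraries, and all 5 were called lower in both HCB comparisons. Endothelial markers summed to 275 to 326 CPM in the AT + HCB and HCB libraries and 463 to 587 CPM in the AT and Control libraries, and stellate markers to 179 to 238 CPM and 400.2 to 515 CPM in those same libraries. Each of these 2 gaps came from 1 gene, Stab2 at 152 to 188 against 344 to 426 CPM and Reln at 115 to 190 against 353 to 451 CPM. The endothelial Pecam1 and Lyve1 and the stellate Des and Lrat overlapped, and 1 of 3 genes was called in each list. Of all genes, 27.6% were called in AT + HCB against AT and 26.9% in HCB against Control, so 1 of 3 is near that share. The sum of 6 hepatocyte markers overlapped, at 113207 to 179092 CPM in the AT + HCB and HCB libraries and 77554 to 148292 CPM in the AT and Control libraries, with Alb and Tf making up most of it. The other 4 did not overlap: Apoa1 was lower in every AT + HCB and HCB library, and Ttr, Asgr1 and Cyp2e1 were higher. Kupffer markers summed to 174 to 313 CPM in the AT + HCB and HCB libraries and 152 to 275 CPM in the others. Bile duct markers summed to 9.27 to 18.2 and 10.6 to 16.9 CPM. These sums overlapped, but Clec4f and Epcam were higher in every AT + HCB and HCB library, and Marco, Krt7 and Sox9 lower. Cd68 and Cd163 overlapped. Intestinal and kidney markers, whose tissues also carry these enzymes, summed to at most 3.70 and 38.9 CPM in any library. The kidney sum was 38.9 and 4.03 CPM in the 2 HCB libraries. Exposure to HCB cannot be told apart from these differences, and their part in the results was not tested. Reads assigned to genes numbered 29376942 to 51982004 per library. The share in no annotated exon was 7.46% to 11.4% in the AT + HCB and HCB libraries and 15.3% to 34.04% in the AT and Control libraries. It was highest in AT replicate 1 and Control replicate 1. Scaling factors for composition (TMM) split likewise, at 0.777 to 0.891 against 1.01 to 1.42. These differences cannot be told apart from exposure to HCB either.

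UDP-glucuronosyltransferases sit in the membrane of the endoplasmic reticulum and attach glucuronic acid from UDP-glucuronate to bilirubin, steroids, thyroid hormone and drugs. Sulfotransferases are soluble enzymes that attach sulfate from the donor PAPS to phenols, catechols, steroids and bile acids. Both make small lipophilic molecules soluble enough for bile or urine, and in rodent liver several members are known to differ between the sexes and between fetal and adult life.

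Every member called in an HCB comparison was higher in the libraries labelled with HCB. With 18 of 24 members abundant enough to test, 12 rose and 0 fell in HCB against Control at an adjusted p under 0.05 (edgeR quasi-likelihood test, Benjamini-Hochberg over all genes tested), beside 26.9% of all 16591 genes called in either direction. Those were 2165 higher and 2301 lower. In AT + HCB against AT, 9 members rose and 0 fell, beside 27.6% of all genes called, 2084 higher and 2487 lower. The median log2 fold change of the tested members was 2.85 in HCB against Control and 1.95 in AT + HCB against AT, where that of all genes was −0.09 and −0.11. Of the 18 tested members, 16 reached the filter level set by all 8 libraries, 0.238 CPM, in 2 AT or Control libraries. Sult2b1 and Ugt2b7 did not. When the filter was run on the AT and Control libraries alone, 14 members were kept. All 9 members called in AT + HCB against AT were also called in HCB against Control; the 2 comparisons share no rats. Without AT replicate 1 and Control replicate 1, a choice made after seeing the data, 9 members rose in HCB against Control and 8 in AT + HCB against AT. Fewer cells of a type and less RNA per cell cannot be told apart in bulk tissue. With 2 rats a group, the p-values rest on a spread that was pooled over all groups and partly borrowed from other genes.

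**Figure D1:**
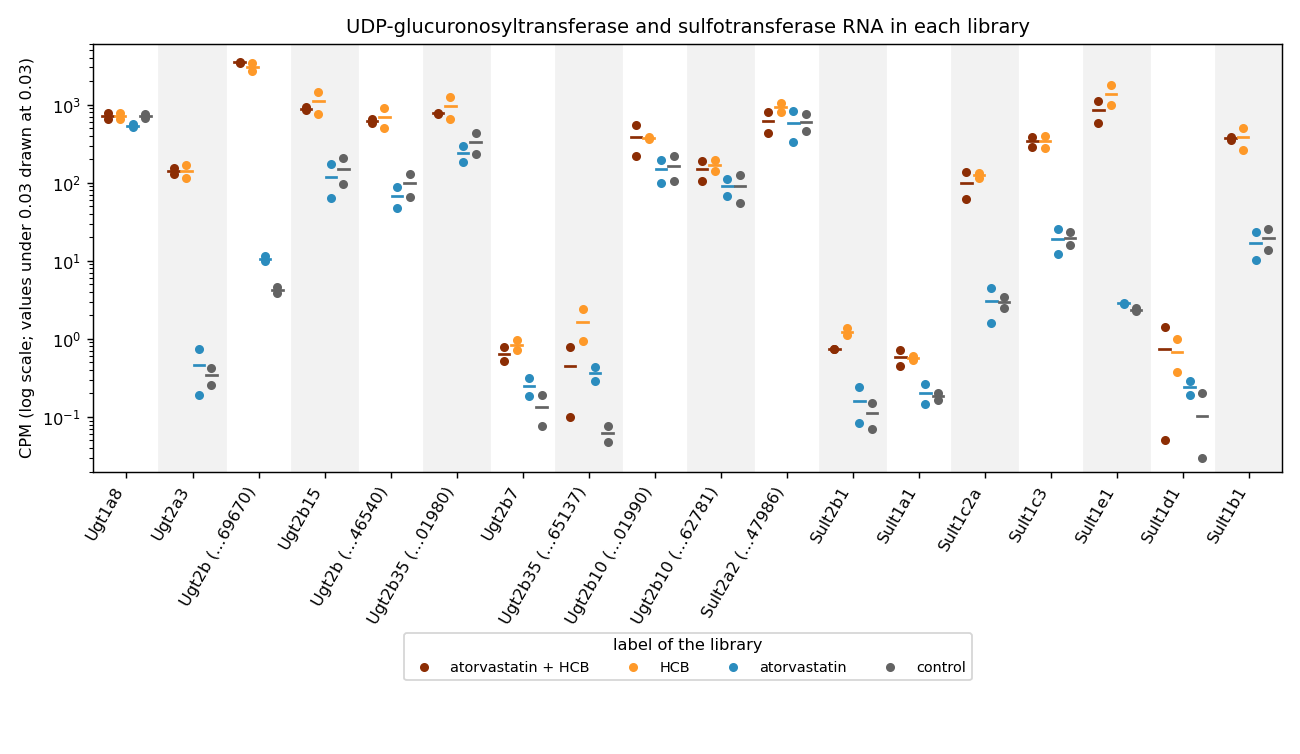
RNA level of the 18 tested members in each library, in CPM on a log axis; points are single rats, short lines group means, and colours the library labels. Ugt2b (ENSRNOG00000069670), Ugt2a3 and Sult1e1 show the widest gaps between the AT + HCB and HCB libraries and the AT and Control libraries, while Ugt1a8 stays between 513 and 777 CPM in all 8.

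Within the UGT2 family, the enzymes for steroids, bile acids and many drugs, the members differed by orders of magnitude in how far they moved. The row named Ugt2b with the identifier ENSRNOG00000069670 (chromosome 14, 20630250 to 20651776, mRatBN7.2) reached 3419 and 3551 CPM in the AT + HCB libraries and 3447 and 2682 CPM in the HCB libraries, against 11.4 and 9.93 CPM in the AT libraries and 3.88 and 4.59 CPM in the Control libraries. All 4 HCB-labelled libraries were far above all 4 others. Its log2 fold change was 8.35 ± 0.45 (SE) in AT + HCB against AT and 9.50 ± 0.47 in HCB against Control, with adjusted p of 1.49e-06 and 1.10e-06 by edgeR. Ugt2a3, whose human counterpart conjugates bile acids, had 153 and 130 CPM (AT + HCB) and 171 and 115 CPM (HCB), against 0.192 and 0.748 CPM (AT) and 0.254 and 0.426 CPM (Control). In the AT and Control libraries it was thus near the detection limit, resting on 8 to 36 reads. The log2 fold change of Ugt2a3 was 8.19 ± 0.54 in AT + HCB against AT and 8.70 ± 0.56 in HCB against Control (edgeR adjusted p = 4.14e-06 and 3.78e-06).

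A second group of UGT2 genes was plentiful everywhere and rose by a smaller factor. Ugt2b15, whose human counterpart conjugates androgens, stood at 923 and 857 CPM in AT + HCB and 1447 and 760.4 CPM in HCB, against 63.8 and 176 CPM in AT and 97.0 and 207 CPM in Control. The groups with and without HCB did not overlap, and the change was 2.89 ± 0.55 and 2.86 ± 0.55 on the log2 scale in the 2 comparisons (edgeR adjusted p = 0.00346 and 0.00361). The other row named Ugt2b (ENSRNOG00000046540) had 655 and 578 CPM in AT + HCB and 911 and 499 CPM in HCB, against 47.0 and 88.9 CPM in AT and 66.7 and 130 CPM in Control. Its libraries were apart in the same way, and it rose by 3.18 ± 0.46 in AT + HCB against AT and 2.84 ± 0.45 in HCB against Control (edgeR adjusted p = 0.000708 and 0.00122). Ugt2b35 (ENSRNOG00000001980), the most abundant UGT2 row per kilobase of exon in the AT and Control libraries, had 764 and 791 CPM in AT + HCB and 1271 and 653 CPM in HCB, against 186 and 297 CPM in AT and 237 and 437 CPM in Control. In AT + HCB against AT and in HCB against Control its log2 fold changes of 1.68 ± 0.42 and 1.51 ± 0.42 passed in both comparisons (edgeR adjusted p = 0.0141 and 0.0225), but this call was the least firm of the 9. The call was lost in HCB against Control without Control replicate 1 (1.13, adjusted p = 0.180) or HCB replicate 1 (0.98, adjusted p = 0.170). In AT + HCB against AT it was lost without AT replicate 1 (1.39), AT + HCB replicate 1 (1.74) or AT + HCB replicate 2 (1.69), with adjusted p between 0.0554 and 0.0792 by edgeR.

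Rows named Ugt2b10, a form that in humans conjugates tertiary amines, did not pass. Ugt2b10 (ENSRNOG00000001990) had 220.5 and 545 CPM in AT + HCB and 386 and 365 CPM in HCB, against 99.1 and 197 CPM in AT and 106 and 219 CPM in Control. Every HCB-labelled library was higher than every other, yet the log2 fold changes of 1.37 ± 0.49 and 1.21 ± 0.49 had adjusted p of 0.0580 and 0.0880 by edgeR. With DESeq2 both passed (adjusted p = 0.0111 and 0.0268). The second Ugt2b10 row (ENSRNOG00000062781) changed by 0.74 ± 0.43 and 0.90 ± 0.43 (edgeR adjusted p = 0.214 and 0.140), and its AT + HCB libraries overlapped the AT ones. Ugt2b7 was scarce and entered the test only through the HCB-labelled libraries. It and the other row named Ugt2b35 (ENSRNOG00000065137), also scarce, reached no more than 0.961 and 2.41 CPM in any library. Both were called higher in HCB against Control, by 2.64 ± 0.83 and 4.69 ± 1.10 (edgeR adjusted p = 0.0365 and 0.00994), and neither in AT + HCB against AT, at 1.37 ± 0.77 and 0.31 ± 0.91 (adjusted p = 0.206 and 0.821). The Ugt2b7 call was lost without any 1 of the Control, HCB or AT + HCB libraries, and that of Ugt2b35 (ENSRNOG00000065137) without Control replicate 1, Control replicate 2 or HCB replicate 1. Paralogs in this family are similar in sequence, and reads that aligned to several places were not counted, so the split between UGT2B rows is uncertain. The share set aside in this way was 11.3% and 10.7% in AT + HCB and 19.4% and 12.2% in HCB. It was 21.0% and 10.4% in AT and 20.3% and 13.2% in Control, and its part was not tested.

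**Figure D2:**
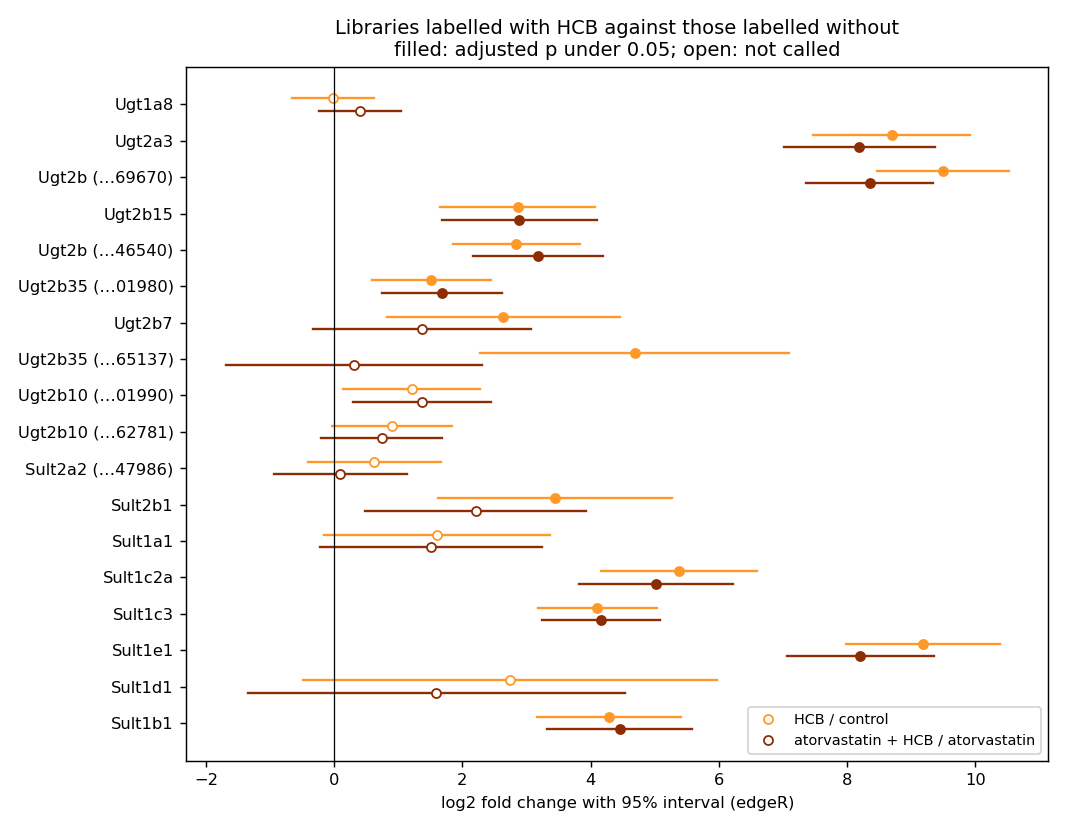
Log2 fold change of the 18 tested members with 95% intervals from edgeR, HCB over Control in orange and AT + HCB over AT in brown; filled points have an adjusted p under 0.05. Sult1e1, Ugt2a3 and Ugt2b (ENSRNOG00000069670) lie above 8 in both comparisons, and the intervals of Ugt1a8 and Sult2a2 include 0.

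Of the 6 sulfotransferases of family 1, 4 rose in both HCB comparisons, and Sult1a1 and Sult1d1 did not pass. The largest change was that of Sult1e1, which sulfates estrogens and is known in rats as a male-predominant liver enzyme. Sult1e1 (chromosome 14, 20422324 to 20439275) reached 580.1 and 1113 CPM in AT + HCB and 1765 and 987 CPM in HCB, against 2.90 and 2.82 CPM in AT and 2.46 and 2.27 CPM in Control. No HCB-labelled library came near the others, and the log2 fold change was 8.21 ± 0.52 in AT + HCB against AT and 9.18 ± 0.55 in HCB against Control (edgeR adjusted p = 3.23e-06 and 2.07e-06). The Y-linked sum moved in the same libraries, as given above, and its part in the Sult1e1 result was not tested. Sult1b1, which sulfates thyroid hormones and small phenols, had 389 and 353 CPM in AT + HCB and 505 and 262 CPM in HCB, against 10.1 and 23.8 CPM in AT and 13.7 and 25.6 CPM in Control. Groups with and without HCB were again apart, with log2 fold changes of 4.45 ± 0.51 and 4.29 ± 0.51 (edgeR adjusted p = 0.000186 and 0.000219).

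Both members of the 1C subfamily rose as well. This subfamily includes a rat enzyme that activates N-hydroxyarylamines, and its genes lie on chromosome 9, away from Sult1e1 and Sult1b1. Sult1c3 (chromosome 9, 7221578 to 7267030) had 389 and 290 CPM in AT + HCB and 397 and 281 CPM in HCB, against 12.2 and 25.6 CPM in AT and 15.9 and 23.3 CPM in Control. Its log2 fold changes were close to each other at 4.17 ± 0.42 and 4.11 ± 0.42 (edgeR adjusted p = 7.18e-05 and 7.86e-05). Sult1c2a (chromosome 9, 6874249 to 6904734) had 62.4 and 137 CPM in AT + HCB and 134 and 115 CPM in HCB, against 1.58 and 4.55 CPM in AT and 2.49 and 3.48 CPM in Control. For Sult1c2a the log2 fold changes were 5.02 ± 0.54 and 5.38 ± 0.55 (edgeR adjusted p = 0.000149 and 0.000106). Calls of Sult1e1, Sult1b1, Sult1c2a, Sult1c3, Ugt2a3, Ugt2b15 and both Ugt2b rows held in both comparisons under each of 17 other settings, each library left out included.

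Sult1a1, the main phenol sulfotransferase of liver in textbooks, cannot be read from this table. Of its 1239 exon bases (chromosome 1, 181272023 to 181275562, minus strand), 1154, or 93.1%, also belong to Sgf29 on the plus strand. Per the file headers, reads were counted without strand and without the option to count a read for several genes, so reads in the shared bases were left out. The row held 29 and 20 reads in AT + HCB and 19 and 20 in HCB, against 11 and 7 in AT and 8 and 7 in Control, and changed by 1.52 ± 0.79 and 1.61 ± 0.80 on the log2 scale (edgeR adjusted p = 0.171 and 0.161). Sult1d1, which in mice sulfates catecholamines, had 2 and 63 reads in AT + HCB and 12 and 37 in HCB, against 8 and 14 in AT and 8 and 0 in Control. Its AT + HCB libraries lay on both sides of the AT libraries, and it was not called in either comparison.

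Because the members moved by unequal amounts, the make-up of both families differed between the libraries. On the scale of CPM per kilobase of exon, the UGT2 members summed to 2335 to 3612 in the AT + HCB and HCB libraries and 244 to 585 in the AT and Control libraries. Ugt2b (ENSRNOG00000069670) was 46.0% and 44.9% of that sum in AT + HCB and 35.6% and 42.8% in HCB, against 1.74% and 0.812% in AT and 0.492% and 0.293% in Control. Ugt2b35 (ENSRNOG00000001980), itself called higher, took 14.4% to 18.8% in the AT + HCB and HCB libraries, against 35.0% to 43.1% in the AT and Control libraries. Ugt2b15 held a similar share throughout, from 14.5% to 22.2%. Sums over the SULT1 members were 1186 to 2442 in the AT + HCB and HCB libraries and 21.1 to 43.3 in the AT and Control libraries. Sult1e1 made up 46.7% and 65.6% of them in AT + HCB and 69.0% and 66.7% in HCB, against 13.1% and 6.23% in AT and 8.80% and 5.19% in Control. In the AT and Control libraries Sult1c3 and Sult1b1 led instead, with 43.7% to 46.8% and 37.2% to 47.4%. All shares are of the rows as counted, with Sult1a1 nearly hidden by its overlap.

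**Figure D3:**
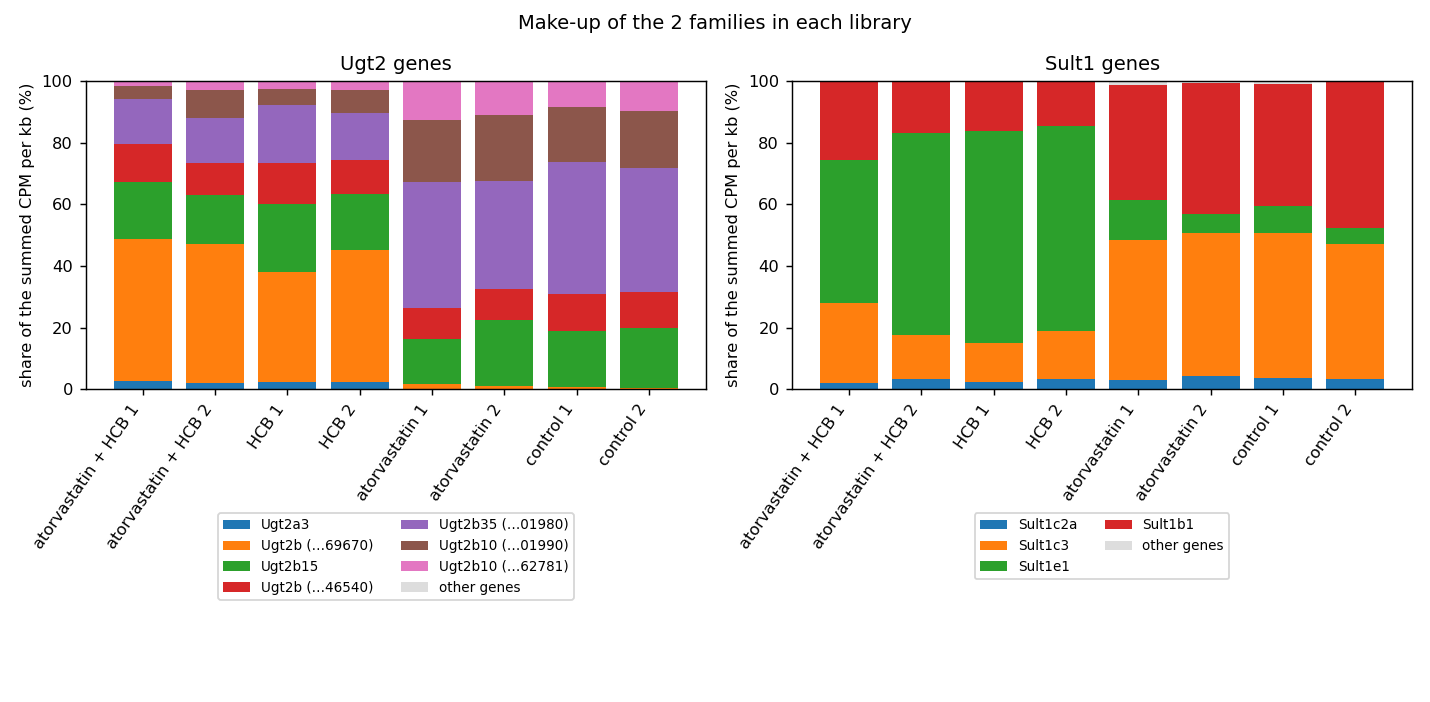
Share of each member in the summed CPM per kilobase of the UGT2 genes (left) and SULT1 genes (right), 1 stacked bar per library in percent. The Ugt2b (ENSRNOG00000069670) and Sult1e1 blocks are wide in the AT + HCB and HCB bars, where Sult1e1 is 46.7% to 69.0%, and thin in the AT and Control bars.

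The order of levels per kilobase followed from this. Among AT + HCB means, Ugt2b (ENSRNOG00000069670) led with 1299 ± 34.7 CPM per kb, then Sult1e1 with 808 ± 360, Ugt2b15 with 492 ± 25.9 and Ugt2b35 (ENSRNOG00000001980) with 416 ± 10.1 (SD, n = 2). Sult1e1 and Ugt2b15 did not differ beyond the spread of Sult1e1. Among HCB means the order was Sult1e1 with 1313 ± 525 CPM per kb, Ugt2b (ENSRNOG00000069670) with 1142 ± 202, Ugt2b15 with 610.4 ± 268 and Ugt2b35 (ENSRNOG00000001980) with 515 ± 234 (SD, n = 2). Sult1e1 and that Ugt2b row lay within their spread, as did Ugt2b15 and Ugt2b35, while Ugt2b stood above Ugt2b15 by more than the SD of either. In AT libraries Sult2a2 (ENSRNOG00000047986) led with 239 ± 145 CPM per kb, then Ugt2b35 (ENSRNOG00000001980) with 129 ± 42.0 (SD, n = 2), and in Control libraries they had 250.4 ± 86.4 and 180.5 ± 76.1. Here too the neighbours overlapped. This order depends on the annotated exon length, which was 2414 bases for Sult2a2 and 8478 for Ugt1a8, a row that covers several forms. Ugt1a8 may therefore rank too low. Without division by length it averaged 541 CPM in AT and 727 CPM in Control, beside 577 and 604 CPM for Sult2a2.

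Of the 24 members, 13 lie in 1 stretch of chromosome 14 (20422324 to 21127828, 706 kb), 3 SULT1 genes followed by 10 UGT2 genes, all on the plus strand. The largest fold changes of members, those of Sult1e1, Ugt2a3 and Ugt2b (ENSRNOG00000069670), were all in its first part. Yet Sult1d1, between Sult1e1 and Sult1b1, was at no more than 1.42 CPM. Ugt2a1, an olfactory form, was too scarce to test at 20 reads in all. At the other end, both Ugt2b10 rows had the smallest changes of the tested UGT2 genes in HCB against Control. A pair of rows in or next to the cluster that carry no Ugt or Sult name moved strongly and were picked after their values were seen. AC114845.1 (chromosome 14, 20717581 to 20737286), between Ugt2b (ENSRNOG00000069670) and Ugt2b15, averaged 22.2 CPM in AT + HCB against 0.0415 in AT and 35.5 in HCB against 0.0364 in Control. With a term for replicate number in the model, its log2 fold changes were 8.88 and 9.78. They are imprecise, since the AT and Control libraries held almost no reads of it. RGD1559459 (chromosome 14, 21145827 to 21167704), just past the last Ugt2b10 row, went the other way, with 6.93 to 29.6 CPM in the AT + HCB and HCB libraries against 97.0 to 171 CPM in the AT and Control libraries, at log2 fold changes of −2.26 ± 0.44 and −3.50 ± 0.46 (edgeR adjusted p = 0.00404 and 0.000448). What these rows encode is not given in the sources used here.

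**Figure D4:**
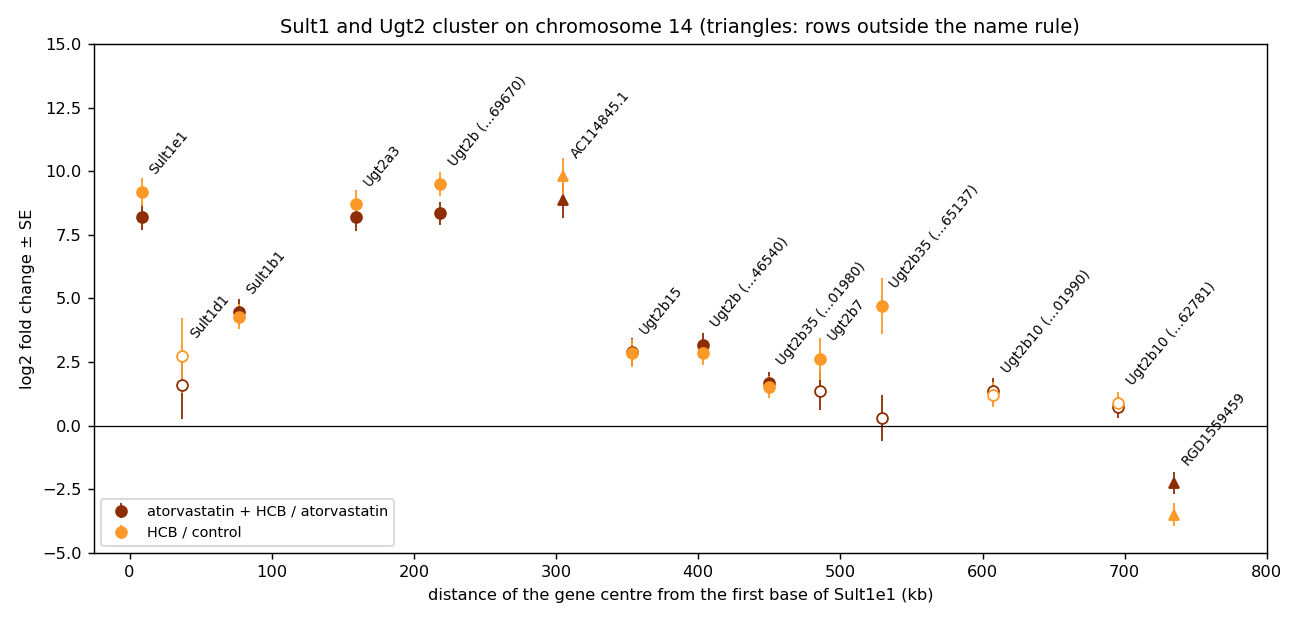
Log2 fold change ± SE of the tested genes along the chromosome 14 cluster against distance from the first base of Sult1e1 in kb; circles are members, triangles rows without a Ugt or Sult name, filled circles have an adjusted p under 0.05. Sult1e1, Ugt2a3, Ugt2b (ENSRNOG00000069670) and the row AC114845.1 stand above 8 and RGD1559459 below 0 in both comparisons.

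Promoter windows, the 250 bases before the annotated start, were taken from RefSeq on GRCr8, a later build than that of the counts. Of 24 members, 17 have a symbol found on 1 row only, and 14 of these matched a window. Windows are shown for genes of the cluster that moved far (Sult1e1, Ugt2a3), each searched on both strands for GCGTG, the core that the aryl hydrocarbon receptor binds, and TTCNNNGAA, a STAT5 motif.
Sult1e1 (GRCr8 chr14:20701230-20701479, plus strand): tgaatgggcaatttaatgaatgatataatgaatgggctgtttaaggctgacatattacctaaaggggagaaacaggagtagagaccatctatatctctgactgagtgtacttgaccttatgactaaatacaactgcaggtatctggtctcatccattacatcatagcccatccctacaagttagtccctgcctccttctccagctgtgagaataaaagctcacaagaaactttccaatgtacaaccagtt
Ugt2a3 (GRCr8 chr14:20851720-20851969, plus strand): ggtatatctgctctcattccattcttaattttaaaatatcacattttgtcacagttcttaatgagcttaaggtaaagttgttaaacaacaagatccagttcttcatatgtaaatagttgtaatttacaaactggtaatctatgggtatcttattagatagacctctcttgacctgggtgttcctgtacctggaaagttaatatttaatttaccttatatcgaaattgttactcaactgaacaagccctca
Neither motif stood in these windows, so no base is in capitals. TTCNNNGAA was in 2 of the 14 member windows, Ugt2b7 and Sult6b1, and in 7.67% of all 33469 windows of that length. A match describes the letters only.

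Ugt2b15 and Ugt2b7 show how near relatives in the cluster can differ in level. Their windows were 67.2% identical over a global alignment, against at most 54.4% in the other pairs of 91, and shared an exact run of 25 bases, against at most 11. No other of these pairs joined Ugt2b genes, since symbols on several rows were not matched to a window. The rank of this pair was thus set by the choice of windows and says nothing about the other Ugt2b rows. The run of 25 bases is in capitals here.
Ugt2b15 (GRCr8 chr14:21122616-21122865, plus strand): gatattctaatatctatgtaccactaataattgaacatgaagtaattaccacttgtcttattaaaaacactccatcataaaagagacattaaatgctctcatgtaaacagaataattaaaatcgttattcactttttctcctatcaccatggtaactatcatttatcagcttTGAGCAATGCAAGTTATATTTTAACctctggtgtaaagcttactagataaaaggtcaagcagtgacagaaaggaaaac
Ugt2b7 (GRCr8 chr14:21251285-21251534, plus strand): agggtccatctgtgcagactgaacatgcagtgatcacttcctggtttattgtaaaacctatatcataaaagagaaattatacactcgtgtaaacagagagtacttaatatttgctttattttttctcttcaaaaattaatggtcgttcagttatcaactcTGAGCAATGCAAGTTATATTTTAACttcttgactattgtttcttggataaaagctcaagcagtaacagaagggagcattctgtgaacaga
Per kilobase, Ugt2b15 averaged 492 CPM in AT + HCB, 610.4 in HCB, 66.4 in AT and 84.0 in Control, while Ugt2b7 averaged 0.334 CPM in AT + HCB, 0.436 in HCB, 0.129 in AT and 0.0686 in Control. The fold difference between the pair was larger than any between groups in either gene.

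Ugt1a8, the sole row with a Ugt1a name, was not called in either HCB comparison. UGT1A enzymes, which include the bilirubin transferase and the forms induced through the aryl hydrocarbon receptor, are made in rats from alternative first exons spliced to a shared end. The row covers 95.3 kb and 14 exon blocks of chromosome 9 (88713184 to 88808465), and RefSeq lists 8 protein-coding Ugt1a genes with the same end, so counts of separate UGT1A forms cannot be read from it. It held 777 and 651 CPM in AT + HCB and 774 and 665 CPM in HCB, against 513 and 569 CPM in AT and 685 and 770.0 CPM in Control. HCB and Control libraries overlapped, and the AT + HCB libraries were above the AT libraries by a small margin. The log2 fold change was 0.40 (95% interval −0.24 to 1.04) in AT + HCB against AT and −0.02 (−0.65 to 0.62) in HCB against Control, with adjusted p of 0.321 and 0.973 by edgeR, and the second changed sign under other settings. Windows of Ugt1a6, the form known in rats for its response to aryl hydrocarbon receptor ligands, and of Ugt1a8 are shown, since both hold GCGTG (capitals; CACGC is the same motif on the other strand).
Ugt1a6 (GRCr8 chr9:96194768-96195017, plus strand): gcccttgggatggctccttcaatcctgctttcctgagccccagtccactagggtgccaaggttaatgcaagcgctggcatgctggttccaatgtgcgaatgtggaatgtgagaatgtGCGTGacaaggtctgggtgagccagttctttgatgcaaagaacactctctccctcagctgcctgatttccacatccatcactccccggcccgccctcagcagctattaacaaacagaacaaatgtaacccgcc
Ugt1a8 (GRCr8 chr9:96174649-96174898, plus strand): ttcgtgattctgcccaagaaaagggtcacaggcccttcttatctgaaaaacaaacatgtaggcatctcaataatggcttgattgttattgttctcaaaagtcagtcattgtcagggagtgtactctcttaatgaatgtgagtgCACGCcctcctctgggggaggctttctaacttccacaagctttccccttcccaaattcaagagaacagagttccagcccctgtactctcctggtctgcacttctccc
GCGTG was in 4 of 7 RefSeq Ugt1a windows and in 25.9% of all windows. Among the 14 member windows, GCGTG stood in those of Ugt1a8 and Sult2b1.

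Family 2 sulfotransferases act on hydroxysteroids, bile acids and cholesterol, and the 2A forms are known in rats as female-predominant. The abundant member of this family was not called in either HCB comparison, and a scarce one was called in HCB against Control. Sult2a2 (ENSRNOG00000047986; chromosome 1, 74911100 to 75508134) had 431 and 807 CPM in AT + HCB and 805 and 1063 CPM in HCB, against 329 and 825 CPM in AT and 457 and 752 CPM in Control. The AT + HCB and AT libraries overlapped, the HCB libraries were above the Control ones, and neither difference passed, at 0.10 ± 0.47 and 0.63 ± 0.47 on the log2 scale (edgeR adjusted p = 0.891 and 0.347). Intervals of −0.93 to 1.13 and −0.41 to 1.67 leave room for sizeable changes. The row spans 597 kb and shares 13.9% of its exon bases with Sult2a2-ps1, and the AT + HCB value turned negative without AT replicate 1 (−0.41) or AT + HCB replicate 2 (−0.40). Sult2b1, which sulfates cholesterol and pregnenolone, was scarce, with 0.752 and 0.742 CPM in AT + HCB and 1.36 and 1.12 CPM in HCB, against 0.239 and 0.0831 CPM in AT and 0.152 and 0.0710 CPM in Control. It rose in HCB against Control by 3.45 ± 0.83 (edgeR adjusted p = 0.0114), a call lost without Control replicate 2 (adjusted p = 0.0694) or HCB replicate 1 (0.0507), and had 2.21 ± 0.78 in AT + HCB against AT (adjusted p = 0.0573). Of its exon bases, 27.2% are shared with Fam83e and Lmtk3 on the other strand. Sult2b1 entered the test only through the HCB-labelled libraries. The members left untested, Ugt3a2, Sult4a1, Sult5a1, Sult6b1, Sult6b2 and Ugt2a1, held 12 to 44 reads over all 8 libraries.

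Atorvastatin was accompanied by no called member. In AT against Control and in AT + HCB against HCB, 0 of 18 members and 0% of all genes passed by edgeR, and the same held for the interaction and for the average effect of atorvastatin. At an unadjusted p under 0.05 there were 2 members in AT against Control, 0 in AT + HCB against HCB, 2 in the interaction and 1 in the average, among 181, 857, 391 and 601 genes, or 1.09%, 5.17%, 2.36% and 3.62% of those tested. DESeq2 gave an adjusted p to 1473, 14017, 16591 and 16269 genes in these comparisons. In AT against Control its adjustment thus covered far fewer genes than the 16591 of edgeR, so their adjusted p are not alike. DESeq2 called 3, 44, 5 and 6 genes, of which 1 was a member. That member was Ugt2b (ENSRNOG00000069670), at 11.4 and 9.93 CPM in AT against 3.88 and 4.59 CPM in Control. Its change on the log2 scale was 1.33 ± 0.34 (unadjusted p = 0.00235, adjusted p = 1 by edgeR, adjusted p = 0.00193 by DESeq2). In AT + HCB against HCB it changed by 0.19 ± 0.32 (95% interval −0.53 to 0.90), and the interaction was −1.15 ± 0.47 (unadjusted p = 0.0319, edgeR adjusted p = 1.00). The second member was Ugt2b35 (ENSRNOG00000065137), with 0.431 and 0.291 CPM in AT against 0.0762 and 0.0474 CPM in Control, and 0.100 and 0.787 CPM in AT + HCB against 2.41 and 0.935 CPM in HCB. Sult1e1 averaged 847 ± 377 CPM in AT + HCB against 1376 ± 550.1 CPM in HCB (SD, n = 2 each), within the spread of the rats (log2 −0.70 ± 0.38, edgeR adjusted p = 0.892).

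RNA of genes that supply the donors, remove or export the conjugates or regulate these families was read beside the members. For each list below, the share of all genes called was 27.6% in AT + HCB against AT and 26.9% in HCB against Control. Of 3 genes for UDP-glucuronate supply, 3 were called higher in AT + HCB against AT and 2 in HCB against Control. Ugdh, which makes UDP-glucuronate, had 135 and 154 CPM in AT + HCB and 119 and 126 CPM in HCB, against 23.4 and 36.2 CPM in AT and 27.2 and 31.9 CPM in Control. The gap was wider than the spread in both comparisons, at 2.28 ± 0.27 and 2.05 ± 0.26 on the log2 scale (edgeR adjusted p = 0.000195 and 0.000351). Ugp2, which makes the precursor UDP-glucose, rose by 1.63 ± 0.36 and 1.81 ± 0.36 (edgeR adjusted p = 0.00703 and 0.00426), a call lost in HCB against Control without Control replicate 1 (adjusted p = 0.0512). Slc35d1, a carrier of UDP-glucuronate into the endoplasmic reticulum, rose in AT + HCB against AT by 1.29 ± 0.35 (adjusted p = 0.0194) and had 0.91 ± 0.34 in HCB against Control (adjusted p = 0.0726). Its call was lost without AT replicate 1, AT replicate 2 or AT + HCB replicate 1 (edgeR adjusted p = 0.0684, 0.0636 and 0.111), and in HCB against Control it passed by DESeq2 (adjusted p = 0.0449) and without HCB replicate 1 (log2 1.42, edgeR adjusted p = 0.00722).

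Among 9 tested genes for sulfate and PAPS, 5 were higher and 0 lower in AT + HCB against AT, and 5 were higher and 1 lower in HCB against Control. Cdo1, which starts the breakdown of cysteine to sulfate, rose by 2.88 ± 0.46 and 3.77 ± 0.48, and Slc26a1, a sulfate transporter, by 2.81 ± 0.37 and 2.88 ± 0.37. The 2 PAPS synthases parted. Papss2, the main liver form, had 338 and 225 CPM in AT + HCB and 325 and 318 CPM in HCB, against 62.5 and 96.2 CPM in AT and 75.0 and 82.7 CPM in Control (log2 1.83 ± 0.31 and 2.03 ± 0.31, edgeR adjusted p = 0.00169 and 0.000918). Papss1 was lower in HCB against Control, at −0.90 ± 0.27 (edgeR adjusted p = 0.0301), and had −0.77 ± 0.27 in AT + HCB against AT (adjusted p = 0.0515). On the side of removal, 1 of 4 genes was called in each comparison, a share near that of all genes. It was Sts, the steroid sulfatase that takes sulfate off again, at 2.89 ± 0.30 and 2.61 ± 0.30 (edgeR adjusted p = 8.84e-05 and 0.000160). Export genes were all called, 2 higher and 2 lower in both comparisons: Abcc2, the canalicular pump for conjugates, at 2.32 ± 0.36 and 2.57 ± 0.36, Abcc4 at 1.26 ± 0.32 and 1.13 ± 0.32, Abcc3, the pump towards blood, at −2.89 ± 0.46 and −3.39 ± 0.47, and Abcg2 at −1.27 ± 0.30 and −1.91 ± 0.31. The Abcg2 call in AT + HCB against AT was lost without AT replicate 2, AT + HCB replicate 1 or AT + HCB replicate 2 (edgeR adjusted p = 0.0640, 0.0933 and 0.0757).

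Of 9 receptors and transcription factors known to act on these families, 4 were higher and 1 lower in each comparison, beside the 27.6% and 26.9% of all genes. Nfe2l2, the antioxidant response factor, moved by 1.38 ± 0.24 in AT + HCB against AT and 1.05 ± 0.24 in HCB against Control (edgeR adjusted p = 0.00203 and 0.00808), the second lost without Control replicate 1 (adjusted p = 0.0796). Ppara was the lower one, at −1.29 ± 0.24 and −1.08 ± 0.24 (edgeR adjusted p = 0.00342 and 0.00825), the first lost without AT + HCB replicate 1 (0.0635) and the second without Control replicate 1 (0.0517) or HCB replicate 1 (0.0502). Nr1i2, the pregnane X receptor, was called in HCB against Control but not in AT + HCB against AT, at 0.81 ± 0.24 and 0.26 ± 0.24, with an interaction of −0.55 ± 0.33 (edgeR adjusted p = 1.00). Nr1i2 no longer passed without either of the Control libraries (edgeR adjusted p = 0.108 and 0.119), without HCB replicate 2 (0.0813) or with the 2 groups fitted alone (0.0628). Ahr and Stat5b were not called in either comparison. Among transferases outside the name rule, Ugt8, which makes galactosylceramide, was lower at −2.29 ± 0.61 and −2.93 ± 0.64 (edgeR adjusted p = 0.0193 and 0.00692). Its call in AT + HCB against AT was lost without AT replicate 2, AT + HCB replicate 1 or AT + HCB replicate 2 (edgeR adjusted p = 0.0613, 0.126 and 0.101). The tyrosylprotein sulfotransferases Tpst1 and Tpst2 were not called. Called genes of these lists differed between the same libraries as the Y-linked and fetal genes, and the part of those was not tested.

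**Figure D5:**
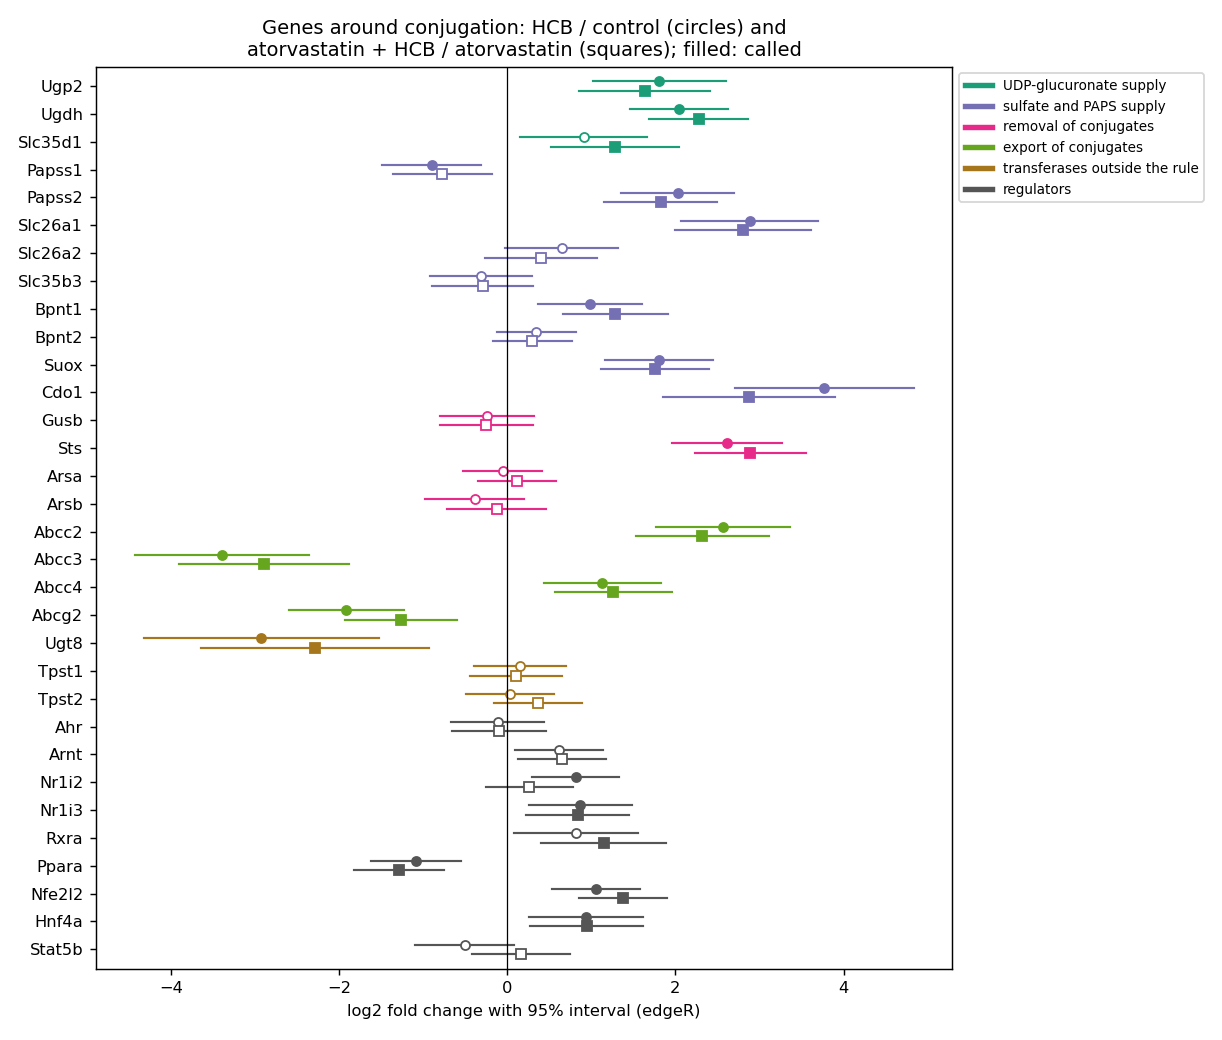
Log2 fold change with 95% interval of genes that supply, remove, export or regulate glucuronide and sulfate conjugation, circles for HCB over Control and squares for AT + HCB over AT, filled where called. Ugdh, Papss2, Slc26a1, Cdo1, Sts and Abcc2 lie to the right in both, and Abcc3, Abcg2, Ugt8 and Ppara to the left.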

How the data were processed

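RNA of 8 rat livers was analysed. The authors deposited whole-number read counts per gene and a summary of assignment classes; 0 sample columns were left out. Per the submitters' processing notes, fastp 0.23.4 trimmed and STAR 2.7.10b aligned the reads; per the file headers, featureCounts 2.0.6 counted them over exons of Ensembl release 111 on mRatBN7.2, without strand, without the option for multimapping reads and without an option to count pairs, so mates appear counted singly. Each library is, per the labels, a separate animal.

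The test on counts was the quasi-likelihood test of edgeR 4.0.16 (R 4.3.3), with TMM scaling, filterByExpr, 1 robust model of the 4 groups with 4 residual degrees of freedom, Benjamini-Hochberg adjustment over 16591 genes and a threshold of 0.05 (common biological coefficient of variation 0.295). The SE of an edgeR log2 fold change is its absolute value divided by the square root of the F statistic. CPM use TMM-scaled library sizes, and per kilobase they are divided by annotated exon length. The steps were tested on simulated data. Alternatives were DESeq2 1.42.0, its size factors, 2 other filters, no robust estimation, a replicate block, 2 groups alone, each library left out and, chosen after seeing the data, halved counts and a fit without AT replicate 1 and Control replicate 1. Members named in full were those called in an HCB comparison with a mean of at least 1 CPM in the higher group, up to 12 each way, plus Ugt1a1, Ugt1a6, Ugt2b1, Sult1a1, Sult1b1, Sult1e1 and Sult2a1 where present under that name; lists gave up to 3 called genes each. Others are named to account for every member or were chosen after their values were seen. Members and lists were chosen with earlier results of these data known. Impad1 was not found, Slc35b2 was too low to test, and 1 regulator of the list is not reported here. Promoters are RefSeq on GRCr8, aligned with biopython 1.88.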

Additional observations from a re-analysis of the deposited data

Results flagged for a closer look

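The values of Ugt2b35 (ENSRNOG00000065137) lay on opposite sides with atorvastatin in the rats with and without HCB, and no test of this passed. Both AT + HCB libraries, at 0.100 and 0.787 CPM, were below both HCB libraries, at 2.41 and 0.935 CPM, while both AT libraries, at 0.431 and 0.291 CPM, were above both Control libraries, at 0.0762 and 0.0474 CPM. The interaction was −4.38 ± 1.41 on the log2 scale, with an unadjusted p of 0.0100 and an adjusted p of 1.00 by edgeR. The atorvastatin comparison had an adjusted p of 0.892 in AT + HCB against HCB and of 1 in AT against Control by edgeR. The values rest on 2 to 76 reads a library.

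A pair of rows outside the name rule had signal in the HCB libraries far above the Control libraries. AC114845.1 averaged 35.5 ± 19.3 CPM in HCB against 0.0364 ± 0.0155 CPM in Control (SD, n = 2 each). RGD1559960, which RefSeq lists as a synonym of Sult1c2al1, averaged 29.9 ± 1.89 CPM in HCB against 0.0474 ± 0.0670 CPM in Control. Both were at 0.144 CPM or less in each AT and Control library, so the size of the change is imprecise.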

How the results depend on the processing

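With 2 rats a group, small changes were beyond reach, low members rest on few reads, and rows of similar paralogs share an uncertain split. Members called numbered 9 to 15 in HCB against Control and 8 to 11 in AT + HCB against AT over the settings that kept every library or removed a pair, and 8 to 12 and 8 to 10 with each library left out. Over all genes, leaving out each library gave 1902 to 4819 calls in AT + HCB against AT, 2164 to 4622 in HCB against Control, 0 to 33 in AT against Control, 0 to 6 in AT + HCB against HCB, 0 to 5 in the interaction and 0 to 9 in the average effect of atorvastatin; members called stayed at 0 in these 4. Without AT replicate 1 and Control replicate 1 together, 2147 genes were called in AT + HCB against AT and 2108 in HCB against Control. DESeq2 called 3 of the 1473 genes to which it gave an adjusted p in AT against Control, 1 of them a member. It called 44 in AT + HCB against HCB, 5 in the interaction and 6 in the average effect. With no filter on low counts edgeR called 76, 179, 70 and 140. Without AT replicate 1 and Control replicate 1, the calls of Slc35d1, Ugp2 and Ugt8 in AT + HCB against AT (adjusted p = 0.114, 0.0552 and 0.0607) and of Nr1i2 and Nfe2l2 in HCB against Control (0.103 and 0.0789) were also lost. Among members, Ugt2b35 (ENSRNOG00000001980) lost its call in both, at log2 fold changes of 1.38 in AT + HCB against AT and 1.14 in HCB against Control. Ugt2b7 and Ugt2b35 (ENSRNOG00000065137) lost theirs in HCB against Control, at 2.14 and 5.05. The cause was not tested.

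Deviations of same-numbered libraries correlated at 0.27 between Control and AT and at −0.05 to 0.05 over the other group pairs. On log CPM, AT replicate 1 correlated at 0.978 with Control replicate 1 and at 0.960 with AT replicate 2. Control replicate 2 correlated at 0.973 with AT replicate 2 and at 0.970 with Control replicate 1. The libraries without HCB thus shared some structure by replicate number, and its source was not tested. With the replicate block 10 members were called in AT + HCB against AT and 13 in HCB against Control, Ugt2b10 (ENSRNOG00000001990) being added at 1.33 and 1.37, and all genes called numbered 4398 and 4282.

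Signs changed for members that were not called. Sult2a2 in AT + HCB against AT ranged from −0.41 to 0.92 with each library left out: it was −0.41 without AT replicate 1, −0.40 without AT + HCB replicate 2 and −0.42 without AT replicate 1 and Control replicate 1. Ugt1a8 in HCB against Control ranged from −0.10 to 0.10 and was 0.0048 with DESeq2 and with its size factors, 0.10 without Control replicate 2, 0.090 without HCB replicate 2, and 0.010 and 0.011 without either AT + HCB library. In AT + HCB against AT, Sult1d1 was −2.17 and Ugt2b35 (ENSRNOG00000065137) −1.78 without AT + HCB replicate 2, and 2.57 and 1.16 without AT + HCB replicate 1.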

Other observations

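RGD1559960 lies on chromosome 9 (7163051 to 7201941), between Sult1c2a and Sult1c3, and was picked after its values were seen. It had 42.6 and 18.7 CPM in AT + HCB and 28.6 and 31.3 CPM in HCB, against 0.144 and 0.0415 CPM in AT and 0 and 0.0947 CPM in Control. The log2 fold change was 8.37 ± 0.68 in AT + HCB against AT and 9.17 ± 0.73 in HCB against Control (edgeR adjusted p = 1.98e-05 and 1.63e-05). Its neighbours Sult1c2a and Sult1c3 changed by 5.02 and 4.17 in AT + HCB against AT and by 5.38 and 4.11 in HCB against Control.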
